A study of Rattus norvegicus with 16 samples.

Results

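The core loop of the circadian clock was followed in the rat left ventricle through 10 genes, Bmal1, Clock, Npas2, Per1, Per2, Per3, Cry1, Cry2, Nr1d1 and Nr1d2, of the 14217 genes measured. They were chosen by gene symbol, from a list drawn up after changes of clock genes against control had been seen in these same arrays. All 10 were measured, by 18 of the 20826 probe sets that carry 1 gene symbol, and none was lost to a filter on low values. The comparisons with control are therefore given as a description, with no p value for a member, and counts of genes past a threshold stand there beside the share of all genes past it.

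Left ventricles of adult male Sprague-Dawley rats were profiled on 16 arrays, 4 of them from control hearts and 4 from hearts at each of 8, 16 and 24 weeks of an aortocaval fistula (ACF). An ACF joins the abdominal aorta to the inferior vena cava and loads the heart with volume (volume overload, VO). Following the times in the study, 8 weeks stands for the compensated hypertrophy (CH) phase and 16 weeks for the heart failure (HF) phase. The sample titles call the control hearts baseline, whereas the methods describe sham controls, so their age and surgery are not settled. All groups share strain, sex and tissue, and the labels name no drug or allele. For the 4 arrays titled 24 weeks, the sample descriptions give 24, 25, 26 and 27 weeks. The labels number the samples of a group without naming animals, so the p values measure the spread between these samples. The hour of the day at which the hearts were excised is not given in the sources used here. Its part in the differences between groups was not tested.

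The mammalian clock is a loop of transcription factors found in nearly every cell, heart muscle cells included. BMAL1 pairs with CLOCK, or with its relative NPAS2, on E-box elements and switches on the Per, Cry and Nr1d genes. PER and CRY proteins then return to the nucleus and block that pair, while the nuclear receptors REV-ERBα (Nr1d1) and REV-ERBβ (Nr1d2) repress Bmal1. The transcripts of the positive arm and those of its targets therefore peak at different hours, and in heart the clock is known to time genes of metabolism and contraction.

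Letters known from clock regulation were searched in the 250 bases before annotated starts of transcription, as a description of those windows. RefSeq promoters on GRCr8 held 11 such windows for 9 of the 10 members, with 2 each for Nr1d1 and Clock, and Cry1 had no entry. The E-box CACGTG was present in 1 of the 11 windows and in 5.59% of the 33469 windows of that length. CACGTT, a variant of the E-box, was present in 3 of 11 and in 4.07% of all. TTATGNAA, the D-box that binds DBP, TEF, HLF and NFIL3, was present in 1 of 11 and in 3.28% of all. AGGTCA, the core letters of elements for REV-ERB and ROR receptors, was present in 2 of 11 and in 14.1% of all, and the CRE TGACGTCA in none and in 1.59%. Both strands were searched, and no position matched more than 1 of these motifs. A match describes the letters only, and a window without one says nothing about binding. The windows of Per1, Per3 and Npas2 and the second of Clock held no match and lie within the span RefSeq annotates for their gene. For Per1, Per3 and Npas2, the bases upstream of that span were not searched. The 7 matches are shown on the strand of the gene with 12 bases on either side where the window allows, and capitals mark the matched letters.
Bmal1, AGGTCA, chr1:176766301-176766327, + strand: aaggcagaaagtAGGTCAgggacggag
Per2, CACGTT, chr9:99497038-99497067, - strand: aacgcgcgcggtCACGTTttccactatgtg
Per2, TTATGNAA, chr9:99497166-99497197, - strand: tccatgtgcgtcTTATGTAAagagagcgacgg
Cry2, CACGTT on the other strand, chr3:98860632-98860661, - strand: acacatggtgggAACGTGagggggcggggc
Nr1d1, CACGTT on the other strand, chr10:84231969-84231998, - strand: cgcatagagctcAACGTGcccgctgctgga
Nr1d1, CACGTG in the second window, chr10:84229628-84229657, - strand: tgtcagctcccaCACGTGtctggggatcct
Nr1d2, AGGTCA, chr15:9954835-9954864, + strand: gattggaaggagAGGTCAggaacgcgcata
Of these, the stretches from Bmal1, from the CACGTT of Per2 and from the second window of Nr1d1 lie within the span RefSeq annotates for their gene. The others lie upstream of the gene.

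For the REV-ERB paralogs, the 16-week arrays of Nr1d2 lay below control without overlap, and those of Nr1d1 overlapped through replicate 2 alone. Their upstream windows are shown whole, each ending at the base before the annotated start. The Nr1d2 window (chr15:9954784-9955033, + strand) holds AGGTCA from -187 to -182, and the first Nr1d1 window (chr10:84231813-84232062, - strand) holds CACGTT on the other strand from -174 to -169.
Nr1d2: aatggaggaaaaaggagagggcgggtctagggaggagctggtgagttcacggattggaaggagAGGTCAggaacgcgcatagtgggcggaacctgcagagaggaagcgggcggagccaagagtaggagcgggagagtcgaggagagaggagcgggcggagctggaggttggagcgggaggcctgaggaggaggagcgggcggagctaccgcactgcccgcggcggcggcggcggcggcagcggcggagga
Nr1d1: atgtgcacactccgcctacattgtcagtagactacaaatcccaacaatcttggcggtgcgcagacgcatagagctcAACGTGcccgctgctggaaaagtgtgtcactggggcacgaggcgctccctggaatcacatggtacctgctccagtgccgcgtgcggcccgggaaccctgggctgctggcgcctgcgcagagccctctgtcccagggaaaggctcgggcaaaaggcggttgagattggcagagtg

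Values below are log2 intensities with the median of each array set to 0, so they state a level relative to the array and are not compared between genes. The array medians lay at 2 levels that differed by 0.21 before centring. All 4 control arrays, 3 at 8 weeks and 2 at 16 weeks were at the higher level, and 1 array at 8 weeks (replicate 2), 2 at 16 weeks (replicates 3 and 4) and all 4 at 24 weeks were at the lower. Replicate pairs correlated with r from 0.983 to 0.995. Ventricular cardiomyocyte markers were high in all groups, with 9 of 10 measured and summed levels from 10.76 to 11.11. Because these are whole ventricles, fewer cells of a type and less RNA per cell cannot be told apart. For genes with more than 1 probe set, the brightest over all arrays was used.

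The positive arm had its highest means at 16 weeks. Bmal1, the indispensable partner of the activating pair, was at -0.30, -0.22, 0.11 and -0.51 in control hearts, at 2.04, -0.09, 0.92 and 2.02 at 8 weeks, at 0.79, 2.55, 2.02 and 1.96 at 16 weeks and at 0.19, 0.40, 0.39 and 0.10 at 24 weeks. All 16-week arrays lay above all control arrays, and at 8 weeks replicate 2 stayed within the control range while the others did not. At 24 weeks the values lay close together, 3 of the 4 above the control range and 1 just within it. The log2 difference from control was 1.46 (SE 0.39) at 8 weeks, 2.06 (SE 0.39), a 4.18-fold level, at 16 weeks and 0.51 (SE 0.39) at 24 weeks. The last of these was 1.07 once array level entered the fit as a block. There the arrays at 8 and 16 weeks set the size of the level, since control and 24 weeks share none.

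Npas2, a paralog of Clock that can replace it as the partner of BMAL1, had the same order of groups at the top. It was at -1.43, -0.85, -0.71 and -0.68 in control hearts, at 1.29, -1.53, 0.30 and 0.78 at 8 weeks, at -0.13, 1.05, 0.88 and 0.60 at 16 weeks and at -0.87, -0.74, -0.30 and -1.92 at 24 weeks. The 16-week arrays lay above all control and all 24-week arrays, and replicate 2 at 8 weeks lay below every control array. The log2 difference from control was 1.13 (SE 0.46) at 8 weeks, 1.51 (SE 0.46) at 16 weeks and -0.04 (SE 0.46) at 24 weeks, where the block turned it to 0.80.

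Clock, whose protein also acetylates histones, differed less between groups. Its brightest probe set was at 2.25, 2.49, 2.44 and 2.34 in control hearts, at 2.88, 2.28, 2.91 and 3.00 at 8 weeks, at 3.02, 3.17, 3.00 and 2.86 at 16 weeks and at 2.43, 2.76, 2.71 and 1.98 at 24 weeks. The 16-week arrays again lay above all control and all 24-week arrays, with a log2 difference from control of 0.64 (SE 0.17), or 1.55-fold. At 24 weeks the difference was 0.09, and 0.47 with the array level as a block. Of its 4 probe sets, the second brightest had a log2 difference of 0.79 from control at 16 weeks, without overlap. The dimmer ones had 0.49 and 0.14, and both overlapped with control.

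**Figure D1:**
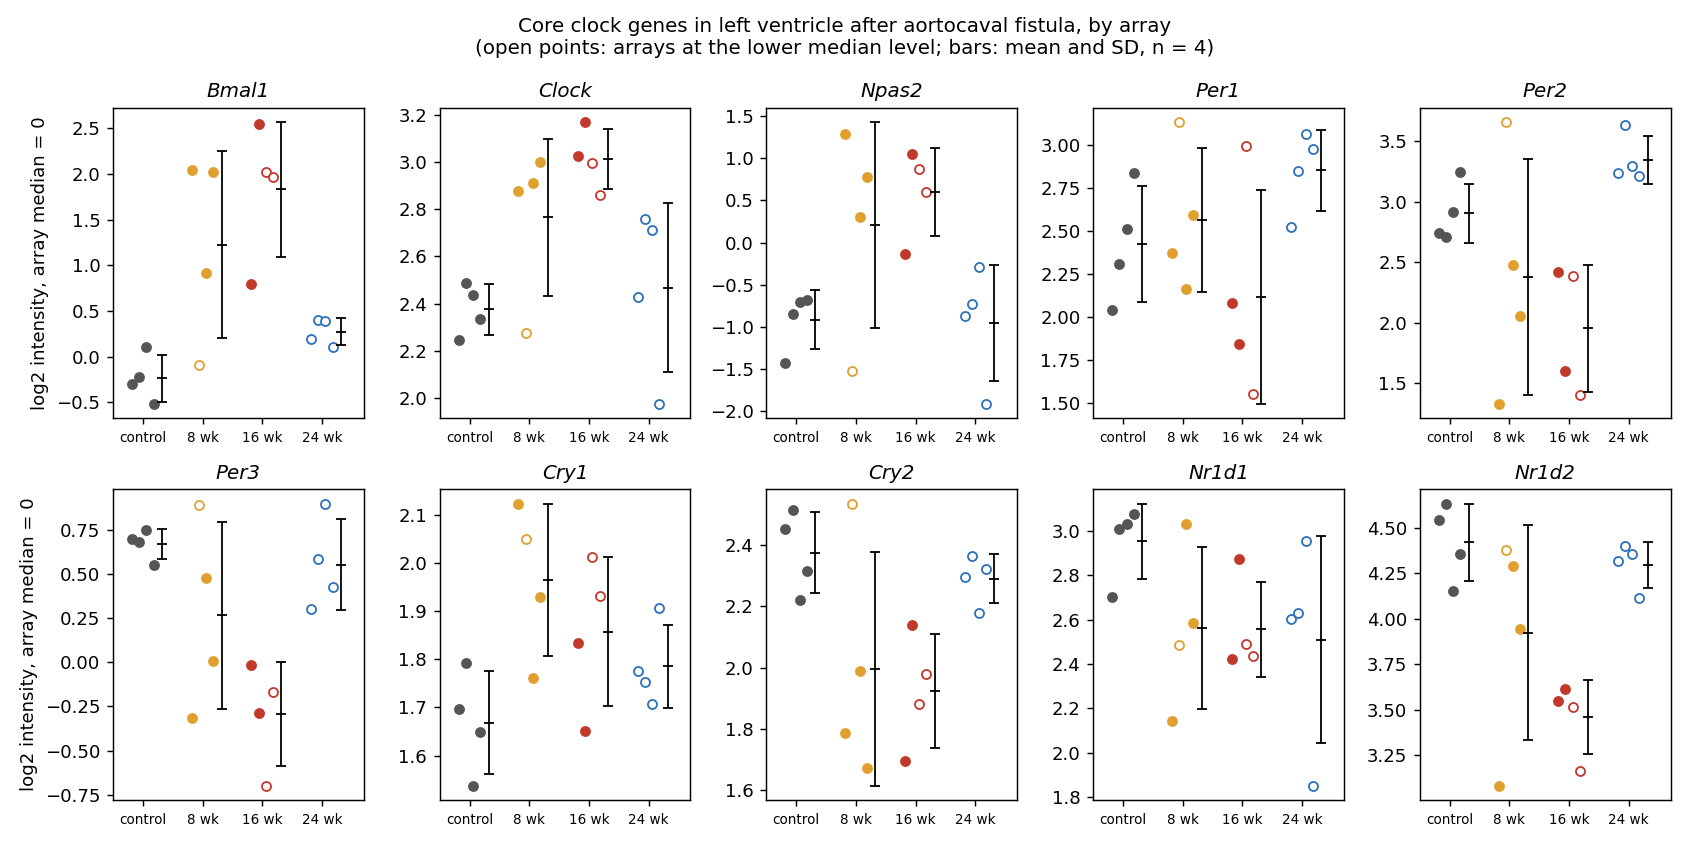
Log2 intensity with the array median at 0 (vertical axes) for each of the 10 core clock genes in control hearts and at 8, 16 and 24 weeks after ACF (horizontal axes), with 1 point per array, open for arrays at the lower median level, and bars for the mean and SD (n = 4). Bmal1, Clock and Npas2 stand highest at 16 weeks, and Per2, Per3, Cry2 and Nr1d2 stand lowest there.

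The period genes, which encode the repressors that time the loop, had their lowest means at 16 weeks. Per2 was at 2.74, 2.71, 2.92 and 3.25 in control hearts, at 1.33, 3.66, 2.47 and 2.05 at 8 weeks, at 2.42, 1.60, 2.38 and 1.40 at 16 weeks and at 3.24, 3.64, 3.29 and 3.21 at 24 weeks. Every 16-week array lay below every control and every 24-week array, and at 8 weeks replicate 2 was above all controls and the others below them. The log2 difference from control was -0.95 (SE 0.35), a level of 0.517, at 16 weeks and 0.44 (SE 0.35) at 24 weeks. The direction at 24 weeks turned with that block, to -0.22. A dimmer probe set of Per2 disagreed, with a log2 difference of -0.08 at 16 weeks and group means from 1.29 to 1.37.

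Per3, a period gene dispensable for rhythm in mice, was at 0.70, 0.68, 0.75 and 0.55 in control hearts, at -0.31, 0.89, 0.48 and 0.01 at 8 weeks, at -0.01, -0.29, -0.70 and -0.17 at 16 weeks and at 0.30, 0.59, 0.90 and 0.43 at 24 weeks. Its 16-week arrays lay below all control and all 24-week arrays, and the log2 difference from control was -0.96 (SE 0.21) at 16 weeks and -0.12 (SE 0.21) at 24 weeks, or -0.31 with the array level as a block. A second probe set, far dimmer at -2.30 to -1.75, had a log2 difference of -0.26 at 16 weeks. Per1, which also responds to glucocorticoids and other acute signals, was at 2.08, 1.84, 2.99 and 1.55 at 16 weeks, against 2.04, 2.31, 2.51 and 2.84 in control hearts. These groups overlapped, and replicate 3 at 16 weeks exceeded every control array. Per1 was at 2.37, 3.14, 2.16 and 2.60 at 8 weeks and at 2.52, 2.85, 3.07 and 2.97 at 24 weeks.

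The cryptochromes, the repressors that bind the CLOCK and BMAL1 pair directly, differed in that only Cry2 separated from control at 16 weeks. Cry2 was at 2.45, 2.51, 2.22 and 2.31 in control hearts, at 1.79, 2.53, 1.99 and 1.67 at 8 weeks, at 1.69, 2.14, 1.88 and 1.98 at 16 weeks and at 2.29, 2.36, 2.18 and 2.32 at 24 weeks. The 16-week arrays lay below all control and all 24-week arrays, the nearest values being 2.18 at 24 weeks and 2.14 at 16 weeks, and the log2 difference from control was -0.45 (SE 0.15). A dimmer probe set of Cry2 had -0.12. Cry1 stayed between 1.54 and 2.12 on all 16 arrays, with log2 differences from control of 0.30 (SE 0.10) at 8 weeks, 0.19 at 16 weeks and 0.12 at 24 weeks, the last of which was -0.06 with the array level as a block and -0.09 in the values as deposited.

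The REV-ERB genes, which encode heme-binding repressors of Bmal1, had means below control at every time. Nr1d2 was at 4.54, 4.63, 4.15 and 4.36 in control hearts, at 3.08, 4.38, 4.29 and 3.94 at 8 weeks, at 3.55, 3.61, 3.52 and 3.16 at 16 weeks and at 4.32, 4.40, 4.35 and 4.12 at 24 weeks. The 16-week arrays lay below all control and all 24-week arrays, with a log2 difference from control of -0.96 (SE 0.21), a level of 0.514. The 2 other probe sets of Nr1d2 had log2 differences of -0.82 and -0.72 at 16 weeks, and of these only the brighter was without overlap with control.

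For Nr1d1, the paralog of Nr1d2, no time separated from control. It was at 2.70, 3.01, 3.03 and 3.07 in control hearts, at 2.14, 2.48, 3.03 and 2.59 at 8 weeks, at 2.42, 2.88, 2.49 and 2.43 at 16 weeks and at 2.60, 2.63, 2.95 and 1.85 at 24 weeks. The groups overlapped throughout, and the log2 differences from control were -0.39, -0.40 and -0.45 at 8, 16 and 24 weeks (SE 0.21 each). At each time the overlap with control came from 1 array, at 3.03, 2.88 and 2.95 in turn, and the others lay below the control range. Its group mean was lowest at 24 weeks, where Nr1d2 was back within the control range apart from 1 array.

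**Figure D2:**
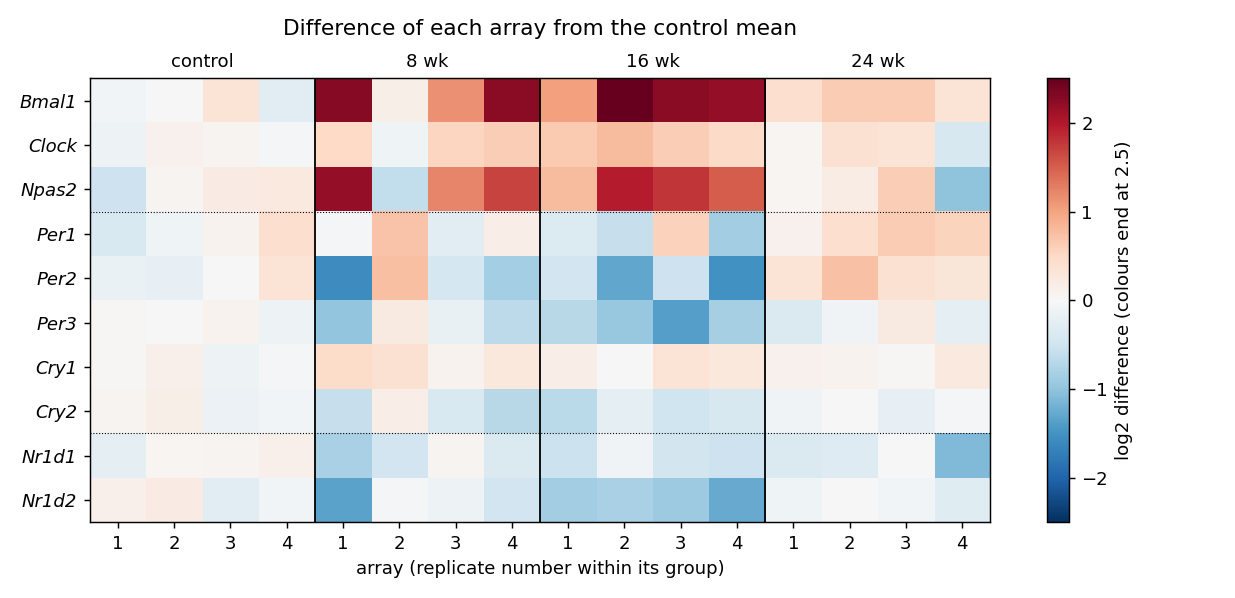
Deviation of every array from the control mean, in log2 units (colour, ending at 2.5), for the 10 genes (rows, dotted lines between positive arm, negative arm and REV-ERB genes) on all 16 arrays (columns, by group and replicate). The 8-week replicates 1, 3 and 4 share the red of the 16-week arrays for Bmal1, Clock and Npas2, and replicate 2 does not.

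Set against control, 3 members were called higher at 16 weeks at an adjusted p under 0.05, Bmal1, Clock and Npas2, where 5.83% of all genes were. Lower calls numbered 2 members, Per3 and Nr1d2, where 3.26% of all genes were called lower. Without overlap, 3 members lay higher (10.1% of all genes) and 4 lower, Per2, Per3, Cry2 and Nr1d2 (6.31% of all genes). At 8 weeks 0 members were called higher and 0 lower, with 0.0492% and 0.00703% of all genes, and the counts at 24 weeks were also 0 and 0, with 0.612% and 0.295% of all genes. By limma at an unadjusted p under 0.05, 6 members were counted at 8 weeks (7.82% of all genes) and 1, Nr1d1, at 24 weeks (16.2% of all genes). Leaving out 1 array at 8 weeks gave from 2 members, without replicate 1 (1073 of 14217 genes), to 8, without replicate 2 (1014 genes). Leaving out 1 array of the comparison at 24 weeks gave 0 to 1 (1517 to 3078 genes). Array weights or the arrays at the higher level alone gave 1 call at 8 weeks, Bmal1 with the weights and Clock at the higher level, and leaving out replicate 2 at 8 weeks gave Bmal1. At 16 weeks, leaving out control replicate 1, 3 or 4 or replicate 2 at 16 weeks left 3 calls, Bmal1, Per3 and Nr1d2, whereas the array level as a block gave 7, Per2 and Cry2 joining the 5. Nothing is read from these counts, since earlier results of the same contrasts were known when the members were chosen. All 24-week arrays were at the lower level and all control arrays at the higher, so time and level cannot be told apart in that comparison.

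The direct comparison of 24 with 16 weeks sets hearts at a later time against those at the time that stands for the HF phase. It uses no control array, but the 16-week arrays are those in which the members had been seen to differ, so it is not independent of their choice. No member passed over all genes in limma, nor did any of the 14217 genes (0.00%). By the methods' t-test with Benjamini-Hochberg adjustment added, 0 members and 1 gene passed. By the methods' own rule (fold above 1.5 and unadjusted p under 0.05), 5 members passed. The share of all genes under that rule was not computed, so nothing is read from this count. In limma, 8 of the 10 members had an unadjusted p under 0.05, against 9.00% of all genes. The 4 members higher at 24 weeks without overlap were Per2, Per3, Cry2 and Nr1d2 (1.29% of all genes), and the 3 lower without overlap were Bmal1, Clock and Npas2 (1.65% of all genes).

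By size, Bmal1 and Npas2 had log2 differences of -1.56 (95% interval -2.38 to -0.73, adjusted p = 0.267 by limma) and -1.55 (-2.53 to -0.58, adjusted p = 0.35 by limma) at 24 against 16 weeks, and Clock had -0.55 (adjusted p = 0.374 by limma). On the repressor side the log2 difference was 1.39 for Per2 (0.66 to 2.13), 0.85 for Per3 (0.41 to 1.28) and 0.84 for Nr1d2 (0.39 to 1.28), each with an adjusted p = 0.267 by limma. Per1 was 0.74 higher (adjusted p = 0.472 by limma) and Cry2 0.37 higher (adjusted p = 0.498 by limma), neither past the threshold. Cry1, at -0.07 (-0.28 to 0.14), and Nr1d1, at -0.05 (-0.48 to 0.39), had intervals on both sides of 0. Within the arrays at the lower level alone, a split chosen after seeing the data, 4 were at 24 weeks and 2 at 16 weeks. There the log2 differences were -1.72 for Bmal1, -1.69 for Npas2, 1.45 for Per2, 0.99 for Per3 and 0.96 for Nr1d2. They are given as sizes only, since 8 weeks has 1 array in that fit. With the array level as a block, they were -1.27 for Bmal1, 1.06 for Per2 and 0.78 for Nr1d2, and no member passed. The mean over all probe sets of a gene gave smaller differences, of 0.73 for Per2, 0.45 for Per3 and 0.24 for Cry2.

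**Figure D3:**
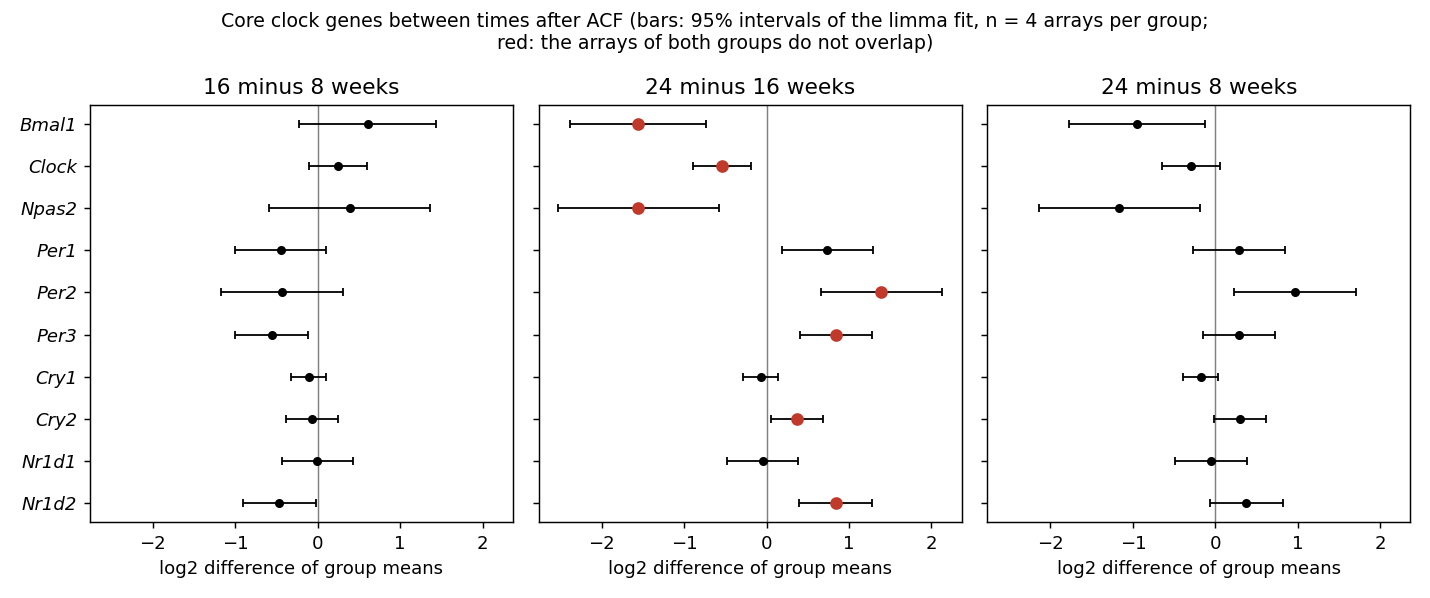
Log2 differences of group means between times after ACF (horizontal axes) for the 10 genes (rows), with points for the difference, bars for the 95% interval of the limma fit (n = 4 arrays per group) and red where the arrays of both groups do not overlap. At 24 against 16 weeks, Bmal1, Clock and Npas2 lie to the left and Per2, Per3, Cry2 and Nr1d2 to the right, and the other comparisons hold no red point.

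Between 16 and 8 weeks, the HF against the CH phase, 0 members and 0 genes passed (0.00%), and 2 members, Per3 and Nr1d2, had an unadjusted p under 0.05 in limma (8.68% of all genes). Per3 differed by -0.56 (adjusted p = 0.45 by limma) and Nr1d2 by -0.46 (adjusted p = 0.555 by limma). No member separated without overlap, where 591 of 14217 genes did. Bmal1 differed by 0.61 (95% interval -0.22 to 1.43, adjusted p = 0.704 by limma). Without replicate 2 at 8 weeks, the differences were 0.17 for Bmal1, -0.19 for Npas2, 0.0004 for Per2, -0.35 for Per3 and -0.31 for Nr1d2. No member then had an unadjusted p under 0.05 in limma (1220 of 14217 genes did). Without replicate 1 at 8 weeks there were 4 members (918 genes). Bmal1 differed by 0.0095 within the higher level and by 2.08 within the lower, where 8 weeks has replicate 2 alone. Between 24 and 8 weeks, again 0 members and 0 genes passed (0.00%), and 3 members, Bmal1, Npas2 and Per2, had an unadjusted p under 0.05 (5.47% of all genes), with log2 differences of -0.95, -1.17 and 0.97. That count was 0 without replicate 1 at 8 weeks (528 of 14217 genes), 7 without replicate 2 (1146 genes) and 5 without replicate 3 there (683 genes). It was 1 without replicate 4 at 8 weeks (695 genes) or at 24 weeks (1401 genes).

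The 8-week hearts differed among themselves far more in these genes than in most others. The members were chosen after changes against control had been seen in these arrays. A change in only some arrays of a group also raises its SD, so this spread is not independent of that choice. The median SD over the members was 0.47 at 8 weeks, against 0.19 in control hearts, and the median over all genes was 0.15 at 8 weeks and 0.13 in control hearts. At 16 and 24 weeks the members had medians of 0.25 and 0.22, and all genes 0.17 and 0.18. Npas2, Bmal1 and Per2 had SDs of 1.23, 1.02 and 0.98 at 8 weeks, above those of 99.9%, 99.8% and 99.7% of all genes. Cry1 was the exception, with an SD of 0.16 above 52.3% of genes. Without replicate 2, the median over the members was 0.42 and that over all genes 0.13.

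The 4 hearts at 8 weeks were spread over more than the span from control to the 16-week arrays. As a description, the mean deviation of the positive arm from control minus that of the Per and REV-ERB genes was 2.61, -0.43, 1.15 and 1.96 at 8 weeks, and 1.40, 2.59, 2.09 and 2.40 at 16 weeks. In control hearts it was -0.11, 0.07, 0.20 and -0.17 and at 24 weeks 0.25, 0.25, 0.29 and -0.20. Replicate 1 at 8 weeks was thus above every 16-week array and replicate 2 below every control array. Replicate 2 was also the only 8-week array at the lower level, and it had the highest level of all arrays for Myl7, the atrial myosin light chain, at 6.91. Control replicate 4 had 6.34 for Myl7. The other atrial markers listed, Myl4 and Sln, were highest in the same 24-week array, at 5.96 and 4.30. In replicate 2 at 8 weeks they were at 5.06 and 3.19. The other 8-week arrays had 4.09, -0.0041 and 6.27 for Myl7, and the part of atrial tissue or array level in the spread was not tested.

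**Figure D4:**
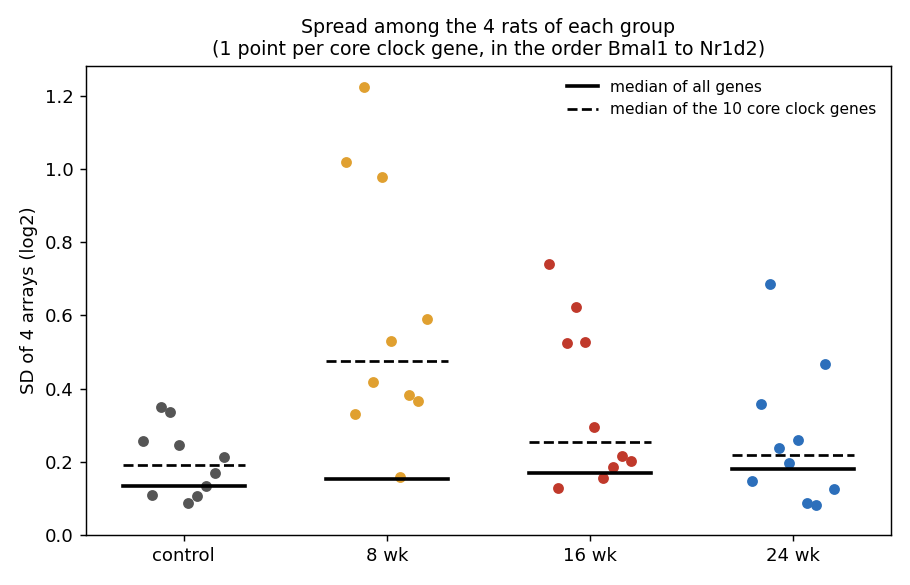
SD of the 4 arrays of each group on the log2 scale (vertical axis), with 1 point per core clock gene, a solid line for the median of all genes and a dashed line for the median of the 10 core clock genes. At 8 weeks the dashed line stands at 0.47 and the solid line at 0.15.

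Within groups, Npas2 varied with Bmal1 from heart to heart and Per2 varied against it, less so without a few arrays. Per3 varied against Bmal1 over all 16 arrays, but no longer did so once those few were left out. Over the deviations of the 16 arrays from their group means, Bmal1 correlated with Npas2 at r = 0.84 (rho 0.72), with Per2 at r = -0.80 (rho -0.65) and with Per3 at r = -0.68 (rho -0.53). Values for Clock (0.57), Nr1d2 (-0.54) and Cry2 (-0.45) were smaller, and those for Per1 (-0.26), Cry1 (-0.11) and Nr1d1 (0.06) were near 0. Without replicate 2 at 8 weeks, r was 0.69 for Npas2, -0.60 for Per2, -0.45 for Per3, 0.25 for Clock, -0.36 for Nr1d2, 0.06 for Per1, 0.05 for Cry1 and 0.19 for Cry2, so that the signs for Per1, Cry1 and Cry2 turned round. Of the arrays that remained, leaving out the 2 whose Bmal1 deviations lay farthest from the median gave 0.51 for Npas2, -0.32 for Per2, 0.04 for Per3 and -0.08 for Nr1d2. These are descriptions over arrays that share their group means and array levels.

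**Figure D5:**
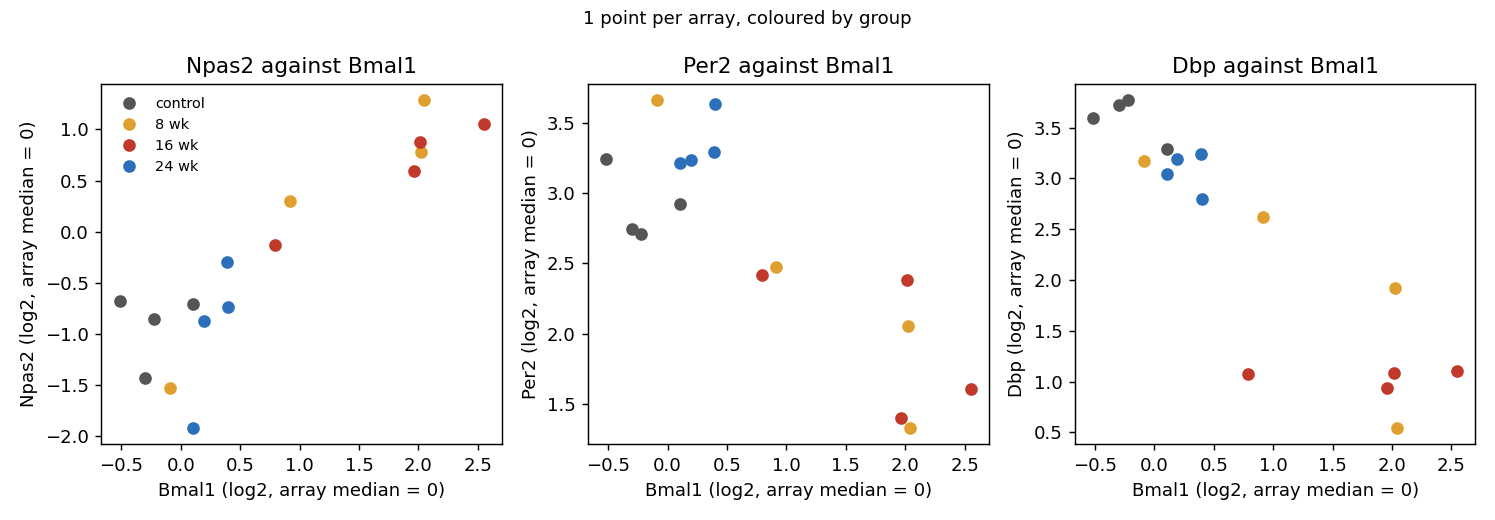
Levels of Npas2, Per2 and the clock output gene Dbp (vertical axes) against Bmal1 (horizontal axes), in log2 with the array median at 0, with 1 point per array coloured by group. Npas2 climbs with Bmal1, whereas Per2 and Dbp descend, and the 8-week arrays run from the control end to the 16-week end.

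Of 25 further clock genes, 19 were measured. This list was also chosen with earlier results of these data known, so its counts are a description and not independent of the members. At 16 weeks, 5 were called lower than control (3.26% of all genes), the D-box activators Dbp, Tef and Hlf, the repressor Bhlhe41 and the deubiquitinase Usp2, and 1 was called higher (5.83% of all genes), Nfil3, which represses D-box genes. Dbp was at 1.08, 1.10, 1.09 and 0.93 at 16 weeks, against 3.72, 3.77, 3.29 and 3.60 in control hearts, a log2 difference of -2.54 (SE 0.36). At 8 weeks it was at 0.55, 3.17, 2.62 and 1.93, with replicate 2 again nearest to control. At 24 weeks it was at 3.19, 2.80, 3.24 and 3.04, above all 16-week arrays and below all control arrays. Bhlhe41 also lay below control without overlap at 24 weeks (635 of 14217 genes) and Bhlhe40 above it (685 genes). For Dbp, the difference between 24 and 16 weeks was 2.02 (SE 0.36, adjusted p = 0.0838 by limma), the highest of all 14217 genes, and it did not pass. Of the 19, 8 had an unadjusted p under 0.05 in that comparison (9.00% of all genes). Without overlap, Dbp, Tef, Hlf, Usp2 and Bhlhe41 were higher at 24 weeks (1.29% of all genes) and Nfil3 lower (1.65%). The median difference over the 19 genes was 0.04, against 0.16 over the members and -0.01 over all genes.

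Among 9467 genes with a mean above the array median, other members left out, the genes whose levels ran most opposite to Bmal1 over the 16 arrays were Hlf (r = -0.921), Dbp (-0.903), Usp2 (-0.894), Tef (-0.872) and Bhlhe41 (-0.849), all from that list of clock genes. The genes that ran most like Bmal1 were Col5a3 (r = 0.883), a fibrillar collagen chain, Spon2, Daam1, Slc41a3 and Egfr, none of them from the list. For Nr1d1 the most alike was Satb1 (r = 0.796) and the most opposite Engase (r = -0.768), and no gene of the list was among its 5 nearest on either side. These orders include the differences between groups, and the list was chosen with earlier results of these data known. Over the deviations from group means, the 5 most opposite to Bmal1 were Rhobtb1 (r = -0.897), Rapgef5, Hlf (-0.842), H1f4 and Tcn2, of which only Hlf is from the list, and the most alike was Spon2 (r = 0.861). For Nr1d1 these were Engase (r = -0.869) and Zc3h7b (r = 0.891).

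Markers of other cells also differed between the groups. The summed level of 7 macrophage markers ranged from 4.37 to 4.59 in control hearts, from 5.24 to 5.48 at 8 weeks, from 5.40 to 6.18 at 16 weeks and from 4.94 to 5.53 at 24 weeks. Called higher than control were 2 of the 7 at 8 weeks (0.0492% of all genes), 6 at 16 weeks (5.83%) and 4 at 24 weeks (0.612%), and 0, 3 and 1 of 6 fibroblast markers at the same times. Between 24 and 16 weeks, 0 macrophage and 0 fibroblast markers were called. All 8-week arrays, replicate 2 included, and all 24-week arrays lay above the control range of this macrophage level. Adipocyte markers stayed low, with summed levels from -0.12 to 0.78. The part of cell composition in the clock values was not tested.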

How the data were processed

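The authors deposited log2 values, 1 per probe set, computed by RMA, which corrects background, normalizes by quantiles and summarizes probes, in Affymetrix Expression Console 1.2, per the labels. The probe sets are those of another rat array than the methods name. Of 31099 probe sets, 57 are controls, 20826 carry 1 gene symbol, 436 several and 9780 none in the annotation used. Each array was centred on its median, and the brightest probe set stood for a gene (14217 genes, no filter on dim probe sets). All 16 arrays entered 1 linear model of group means (limma 3.58.1, R 4.3.3), with Benjamini-Hochberg adjustment over all genes and a threshold of 0.05. Intervals and SE come from that model, and SD describes the 4 arrays of a group. The fit was first tested on simulated data. The 4 arrays per group limit the precision. The members, the other lists and the comparisons were chosen with earlier results of these data known. Named were all members, the listed clock genes called in a comparison or with large differences, and for Bmal1 and Nr1d1 the 5 genes with the highest and the lowest correlation. Alternatives were the values as deposited, cyclic loess, the array level as a block, arrays of 1 level, the replicate number as a block, averaged probe sets, every probe set singly, the upper 50% of genes, array weights, a trend and robust prior, the arrays compared only, the methods' t-test and leaving out each array. The lower level alone and leaving out replicate 2 at 8 weeks for spread and correlation were chosen after seeing the data. Promoter sequences and gene spans came from RefSeq (GRCr8). Tables and figures were made with pandas 2.3.3 and matplotlib 3.10.9.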

Additional observations from a re-analysis of the deposited data

Results flagged for a closer look

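In 40 groups of 4 arrays, 10 genes in 4 groups each, 2 held an array far from the others, and chance alone marks about 1 group in 20. Clock at 8 weeks had replicate 2 at 2.28, with the nearest other array at 2.88. Nr1d1 at 16 weeks had replicate 2 at 2.88, with the nearest other array at 2.49.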

How the results depend on the processing

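The 5 members called at 16 weeks against control became 2 in the upper 50% of genes, where 7 members remained and Bmal1, Npas2 and Per3 were left out as dim, 3 with the methods' t-test after Benjamini-Hochberg adjustment, 6 with cyclic loess or array weights and 7 with the array level as a block or only the arrays compared, and leaving out 1 array gave 3 to 4. At 8 weeks against control the count of 0 became 1 with array weights, with the higher level alone and at the methods' threshold (fold above 1.5 and unadjusted p under 0.05), and leaving out 1 array gave 0 to 1. At 24 against 16 weeks, the lower level alone, a split chosen after seeing the data, is given as differences only. The count of 0 in that comparison became 5 at the methods' threshold. The share of all genes at the methods' threshold was not computed, so nothing is read from the counts there. At 16 against 8 weeks the count stayed 0, the lower level aside, where 8 weeks has 1 array. Of 985 recomputed differences of members in 5 comparisons, 32 changed sign, 19 of them between times and 13 against control. Among all recomputed differences against control, whether or not the sign changed, 19 moved by over 1 SD. The cause was not tested. At 16 against 8 weeks, the higher level alone gave -0.33 for Npas2, 0.060 for Per2, 0.10 for Cry2 and 0.062 for Nr1d1, and the array level as a block 0.033 for Nr1d1. Leaving out 1 array gave from -0.19 to 0.75 for Npas2, from -0.78 to 0.0004 for Per2, from -0.18 to 0.11 for Cry2 and from -0.14 to 0.15 for Nr1d1. At 24 against 16 weeks, Nr1d1 was at 0.028 with the block, 0.046 within the lower level and 0.071 with array weights, and leaving out 1 array gave from -0.195 to 0.17. Against control at 24 weeks, the block gave 1.07 for Bmal1, 0.80 for Npas2, 0.47 for Clock, -0.07 for Per1, -0.22 for Per2, -0.06 for Cry1 and -0.40 for Cry2, the values as deposited gave -0.11 for Clock and -0.09 for Cry1, and array weights gave 0.24 for Npas2. Leaving out 1 array turned Npas2 (up to 0.28) and Clock (down to -0.0051) there, and Per1 at 8 weeks was -0.05 without replicate 2 or at the higher level alone. With averaged probe sets, differences at 16 weeks against control were smaller, at -0.52 for Per2, -0.61 for Per3 and -0.28 for Cry2, and those of 24 against 16 weeks were 0.73, 0.45 and 0.24 for the same genes. Same-numbered arrays did not deviate together (mean r 0.02, 6 of 24 pairs over 0.1), so the numbers were not taken as pairs, and the replicate block gave 5 members at 16 weeks against control and 0 in the other comparisons. With 4 arrays per group, even differences of several standard errors could fail to pass. For Bmal1 at 24 against 16 weeks the difference was -1.56 (SE 0.39, adjusted p = 0.267 by limma).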
